A study of Danio rerio with 16 samples.

Results

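The comparison set brain RNA of zebrafish (Danio rerio) labelled TM1 against brain RNA of zebrafish labelled Nadia. It contrasted the 8 arrays with those strain labels, 4 per strain, of the 16 arrays in the series. The spread behind each test was estimated from all 16 arrays. Every probe set that was not a platform control was tested, 7922 in all. The study asked how the brain transcriptome varies among strains that differ in fear-related behaviour. Both strains were reared in the same recirculating facility, and the fish were adults of 4 to 6 months whose behaviour had been observed before sampling. Each array held RNA of a pool, made from the brains of 2 to 5 fish of 1 sex that had shared a tank, with 2 female and 2 male pools per strain. By the labels TM1 is domesticated and Nadia is wild. The study describes TM1 as a transgenic line with green fluorescent protein (GFP) under a β-actin promoter and Nadia as a line recently derived from the wild in India. No treatment separated the groups, and each pool stands for 1 tank, so strain differences are read against the spread between tanks.

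The labels of these arrays and the value tables published with the study name the strains differently. Over 1645 probe sets of one table and 112 of another, the arrays labelled TM1 carried the values printed there under Gaighatta, and the arrays labelled Nadia carried those printed under SH, each within 0.0001. The sexes were the same in both. GFP was not high in the arrays labelled TM1, at 2.99 to 3.36 log2 units, nor in those labelled Nadia, at 2.93 to 3.18, whereas it lay at 8.58 to 10.46 in the arrays labelled Gaighatta. Strains are named here by the deposited label, TM1 (Gaighatta in the study's tables) and Nadia (SH in the study's tables). The tables' names exchange the domesticated and the wild side, so no difference below is read by rearing history.

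Background on the main gene groups is as follows. Cyp1a is a cytochrome P450 that is induced through the aryl hydrocarbon receptor, a ligand-activated transcription factor, and it is widely used as a sign of exposure to planar aromatic compounds. Microglia are the resident phagocytes of the brain and make complement C1q. Interferons induce the immunoproteasome, which cuts proteins into peptides for class I molecules of the major histocompatibility complex (MHC). MHC genes are among the most variable genes between individuals of a species, in sequence and, in zebrafish, in which genes a haplotype holds. An array probe is a fixed oligonucleotide, so in a probe set's value a sequence difference and an RNA difference cannot be told apart. The study searched the values of single probes for sequence differences between strains and removed the affected probe sets before its tests. That filter was not applied here, so the calls below may include probe sets that the study removed. The study does not list the probe sets it removed. Those it reports as differing among strains had passed the filter, among them Dr.18793.1.A1_at (ccdc39) and Dr.16785.1.A1_at (kcnk1b). The other calls were not checked against its list.

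The 8 arrays resembled each other closely. Their medians lay between 6.08 and 6.20 log2 units, and the correlation over probe sets was 0.967 to 0.986 within TM1, 0.973 to 0.984 within Nadia and 0.955 to 0.980 between the strains. Brain markers were high in both, with strain means of 12.09 and 12.21 for snap25a, a neuronal release protein, and 11.47 and 11.58 for fabp7a, which binds fatty acids in radial glia. Markers of pituitary, muscle, skin and connective tissue varied between pools, and their values stand beside the results they touch. In RNA of whole brains, fewer cells of a type and less RNA per cell cannot be told apart.

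Of the 7922 probe sets, 251 (3.17%) differed between TM1 and Nadia at an adjusted p under 0.05. TM1 was higher at 88 (1.11%) and lower at 163 (2.06%). A fit of the 8 arrays alone called 99, of which 92 were among the 251. Of the 65 probe sets named and called, 29 were not called in that fit. Differences are given as TM1 minus Nadia on the log2 scale, so a negative value means less signal in TM1. Among called probe sets the size of the difference ran from 0.32 to 4.04 with a median of 0.63, against a median standard error of 0.13, and 42 changed at least 2-fold, 17 higher and 25 lower. The 4 TM1 and 4 Nadia values did not overlap at 235 of the 251, beside 788 of all 7922 (9.95%). Every called difference had the same sign in females as in males. Values that do not overlap fix this in advance for the 235, and the share over all probe sets was not computed. The split between directions moved with scaling: 35.1% of calls were higher in TM1 as deposited and 45.6% after the arrays were quantile normalized again, with 135 higher and 161 lower. Of the called probe sets 152 carried exactly 1 gene symbol, for 147 genes, and 96 carried none. The plot of difference against p places cyp1a farthest to the left, with lin7c, scamp5a and mhc1ufa next among named genes. On its right side lie unnamed probe sets, then wls, ifi27.1, nucks1a and hspa8b.

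**Figure D1:**
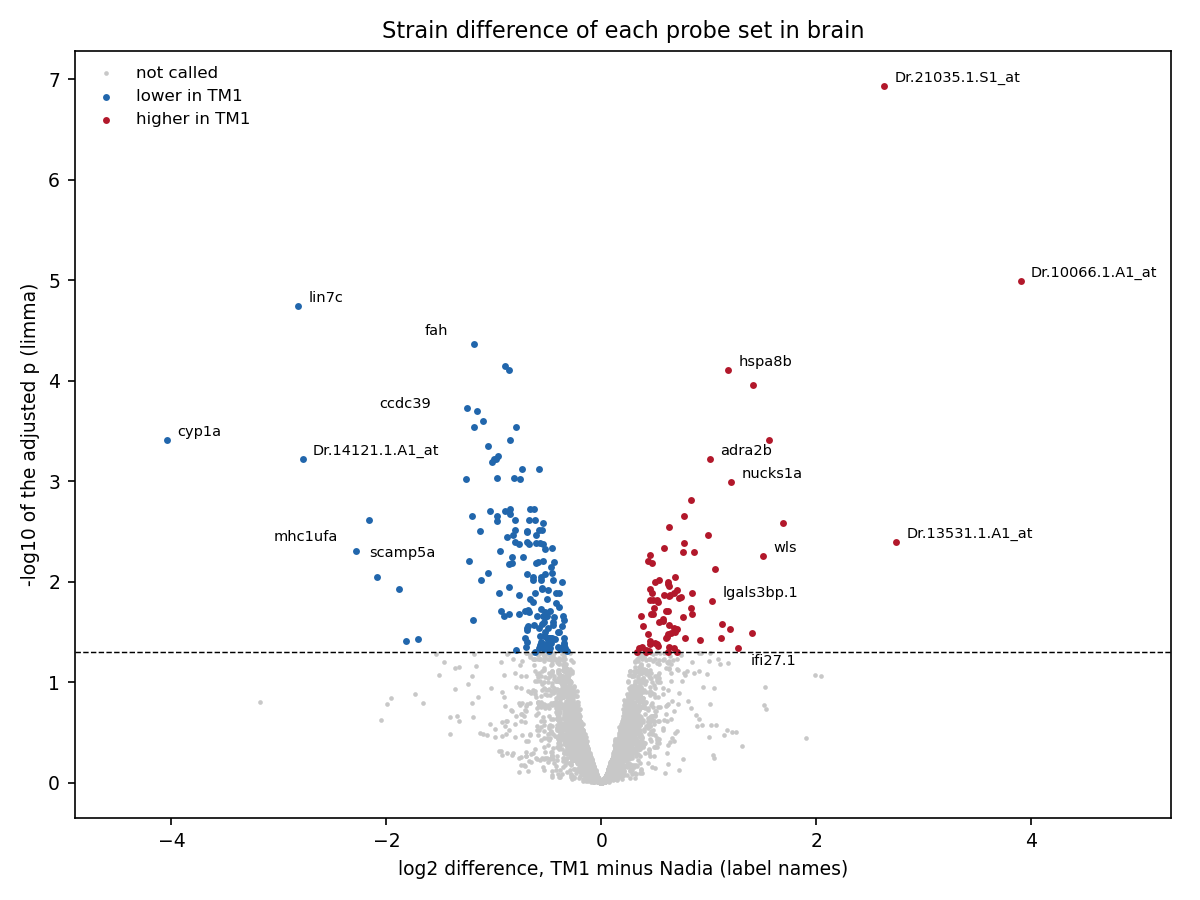
Log2 difference TM1 minus Nadia (x axis) against −log10 of the adjusted limma p (y axis) for 7922 probe sets, with called probe sets coloured by direction. 163 called probe sets lie on the left (lower in TM1) and 88 on the right, with cyp1a at -4.04.

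The largest difference of any probe set was that of cyp1a. In each list of pool values below, the female pools F1 and F2 come first and the male pools M1 and M2 after them. TM1 pools read 3.77, 3.94, 3.68 and 3.59, and Nadia pools read 7.51, 8.14, 8.53 and 6.96. All 4 TM1 pools were low and close together, whereas the Nadia pools were high and spread over more than 1 log2 unit. The strain means were 3.75 ± 0.15 and 7.79 ± 0.69 (SD, n = 4), a difference of -4.04 (SE 0.53, adjusted p = 0.000392). The TM1 values lay just above the 2.46 to 3.57 that fluorescent protein probe sets read in the arrays of TM1, Nadia and SH, so no fold is given. The difference was -3.97 in females and -4.11 in males. The other 2 strains lay on the Nadia side, with means of 7.09 in SH and 6.40 in Gaighatta, so TM1 was the lowest of the 4.

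The rest of the aryl hydrocarbon receptor list did not pass. Of its 4 measured genes cyp1a was the only call. Over all 4923 genes, each represented in such counts by the probe set of highest mean, 2.58% were called, 0.914% higher and 1.67% lower in TM1. A positive difference, called or not, was found at 2194 of them (44.6%). The receptor ahr2 read 5.70, 5.65, 6.01 and 6.03 in TM1 and 6.24, 6.26, 6.25 and 6.09 in Nadia. These values do not overlap, and the difference of -0.36 had an adjusted p of 0.0512. The quinone reductase nqo1, another target of the receptor, read 4.94, 4.75, 4.92 and 5.45 in TM1 against 5.59, 6.09, 5.70 and 6.35 in Nadia. Its difference was -0.92 (adjusted p = 0.124), and its partner-protein gene arnt2 differed by 0.19 (adjusted p = 0.574). The median over the list was -0.64, beside -0.03 over all genes.

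Fah, fumarylacetoacetate hydrolase, is the last enzyme of tyrosine breakdown. It read 5.05, 4.77, 5.10 and 4.80 in TM1 and 6.12, 6.24, 5.91 and 6.15 in Nadia, well apart in both sexes. The difference was -1.18 (SE 0.12, adjusted p = 4.27e-05), or 2.26-fold. Pon2 and pon3.2 belong to the paraoxonase family of lactonases. For pon3.2 the pools read 3.67, 4.01, 3.92 and 3.65 in TM1 and 4.71, 5.22, 4.39 and 5.44 in Nadia, a difference of -1.13 (adjusted p = 0.00313). Pon2 pools lay at 5.55 to 5.71 in TM1 and 6.02 to 6.83 in Nadia, a difference of -0.82 (adjusted p = 0.0034). Neither paraoxonase overlapped between the strains, and in each the lowest Nadia value was the first male pool. Among glutathione and selenium genes 1 of 20 was higher and 1 lower, with a list median of -0.10. Selenop, which carries selenium in plasma and to the brain, read 9.98, 9.87, 9.64 and 9.89 in TM1 and 10.85, 10.58, 10.44 and 10.58 in Nadia, a difference of -0.77 (SE 0.16, adjusted p = 0.0134). The study's quantitative PCR of this gene on the same pools departed from its arrays. It read higher than the arrays predicted in the strain the study calls Gaighatta, its tables' name for these TM1 arrays. In an independent sample of the strains, the study states, PCR and arrays matched. Gpx4a, a selenoenzyme that reduces lipid peroxides, went the other way at 8.89 to 9.28 in TM1 and 7.97 to 8.67 in Nadia, a difference of 0.68 (SE 0.14, adjusted p = 0.0129).

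Among genes of the synapse, 0 of 22 were higher and 3 were lower in TM1 (13.6% called), with a median of -0.11 and 5 of 22 positive. Scamp5a, a secretory carrier membrane protein of synaptic vesicles, read 9.75, 6.83, 8.18 and 8.14 in TM1 and 10.73, 10.68, 10.67 and 9.96 in Nadia. The second TM1 female pool was the lowest and the first the highest, just under the lowest Nadia pool. The difference was -2.28 (SE 0.42, adjusted p = 0.00492), or 4.87-fold. Gaighatta pools were lower still at a mean of 6.00, and SH pools lay near Nadia at 10.02. Syt11a, a member of the synaptotagmin family of vesicle proteins, read 10.25, 9.88, 10.42 and 10.01 in TM1 against 10.76, 10.63, 10.70 and 10.89 in Nadia, a difference of -0.61 (adjusted p = 0.00342). A second probe set of syt11a differed by -0.18 (adjusted p = 0.416). Stxbp3, a syntaxin binding protein of the Munc18 family, read 6.91, 6.83, 6.72 and 6.96 in TM1 against 7.50, 7.22, 7.25 and 7.61 in Nadia, a difference of -0.54 (adjusted p = 0.00613). The mean level of the neuron markers was 9.93 to 10.20 in TM1 pools and 10.19 to 10.31 in Nadia pools. Of the 9 neuron markers 0 were higher and 1 lower in TM1 (tubb5), and their part in the synaptic differences was not tested.

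Lin7c, a PDZ scaffold protein of cell junctions and synapses, was counted in the synapse list by its probe set of highest mean, which was not called (-0.08, adjusted p = 0.785). Its probe set Dr.25322.1.S1_at read 5.95, 4.51, 5.49 and 5.77 in TM1 and 7.90, 8.33, 8.03 and 8.73 in Nadia, a difference of -2.82 (SE 0.26, adjusted p = 1.81e-05). The groups lay almost 2 log2 units apart. Other lin7c probe sets differed by only -0.16 (adjusted p = 0.59) and -0.08 (adjusted p = 0.785), so the gene's probe sets disagree. Among receptors, adra2b, an alpha-2 adrenoceptor for noradrenaline, was higher in TM1. It read 5.95, 6.29, 6.56 and 5.90 in TM1 and 5.19, 5.04, 5.19 and 5.25 in Nadia, a difference of 1.01 (SE 0.14, adjusted p = 0.000599), or 2.01-fold. SH and Gaighatta lay with Nadia at 5.06 and 5.04, and a second adra2b probe set differed by 0.38 (adjusted p = 0.1). The potassium channel kcnk1b was higher in TM1 by 0.53 (adjusted p = 0.0158), a call that ended without TM1 F1, TM1 F2 or Nadia F2, at up to 0.0559. The G protein subunit gng7 was lower at -0.85 (adjusted p = 0.00209).

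**Figure D2:**
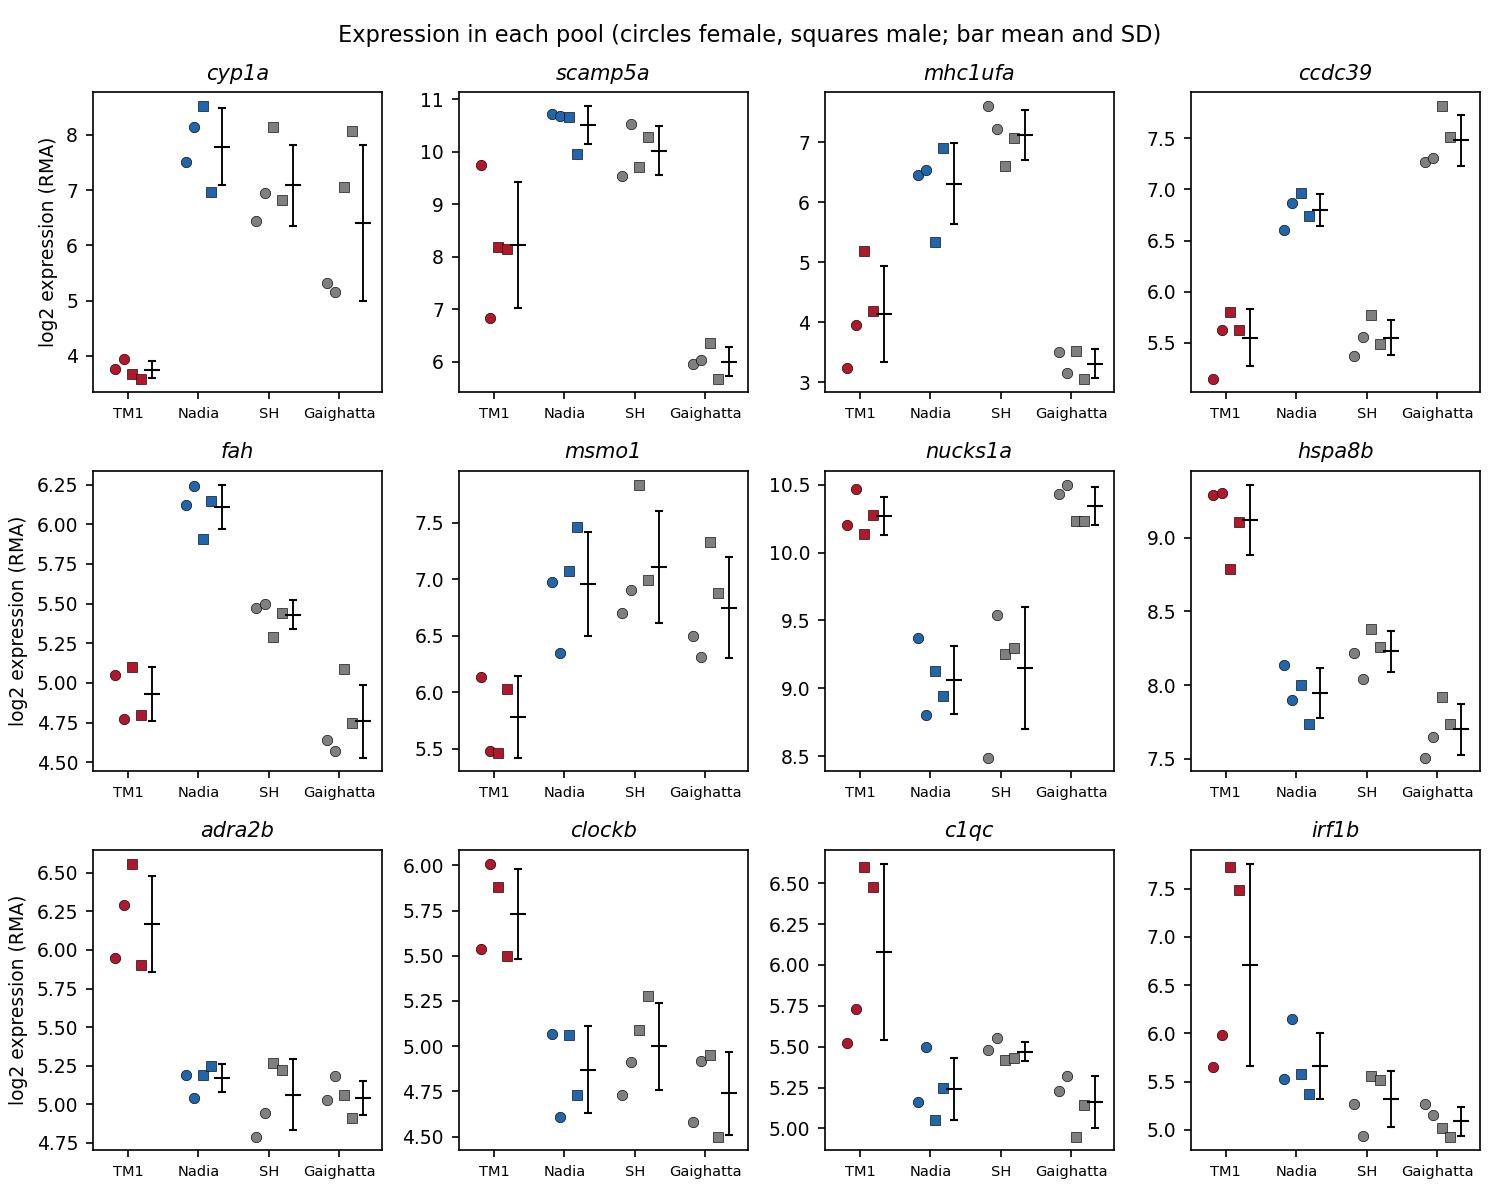
Log2 RMA value (y axis) of 12 genes in each pool of the 4 strains, with circles for female pools, squares for male pools and a bar for each strain's mean and SD. For cyp1a the 4 TM1 pools sit at 3.59 to 3.94, below the 4 Nadia pools at 6.96 to 8.53, and for irf1b the 2 male TM1 pools stand above their females.

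Genes of the lipid and cholesterol list that passed were all lower in TM1, and genes outside that list were not counted. Of 47 measured, 6 were lower in TM1 and 0 higher (12.8% called), with a median of -0.11. Positive differences were found at 18 of the 47, beside 44.6% of all genes. Msmo1, the methylsterol monooxygenase of the cholesterol pathway, read 6.13, 5.48, 5.46 and 6.03 in TM1 and 6.98, 6.35, 7.07 and 7.46 in Nadia. The groups did not overlap, though their nearest pools were close. The difference was -1.19 (SE 0.28, adjusted p = 0.0239), and it did not pass without TM1 F2, TM1 M1, Nadia F1, Nadia M1 or Nadia M2, at up to 0.0746. Dhcr7 reduces 7-dehydrocholesterol to cholesterol. It read 5.48, 5.99, 6.28 and 6.00 in TM1 and 6.40, 6.37, 6.70 and 7.03 in Nadia, a difference of -0.69 (adjusted p = 0.04) that ended without any 1 of 5 pools (TM1 F1, F2 and M2, Nadia M1 and M2), at up to 0.109. Dbi, an acyl-CoA binding protein that also binds the benzodiazepine site of GABA receptors, had the tightest groups. Its pools read 6.44, 6.31, 6.12 and 6.33 in TM1 and 6.87, 6.88, 6.89 and 6.86 in Nadia, a difference of -0.58 (SE 0.08, adjusted p = 0.000753). The other 3 calls were the phospholipase pla2g12a (-0.52, adjusted p = 0.0318), the fatty acid elongase elovl7a (-0.48, adjusted p = 0.0361) and the mitochondrial beta-oxidation subunit hadhb (-0.35, adjusted p = 0.0425). The pla2g12a call ended without any 1 of 6 pools (all but TM1 M1 and Nadia F1), at up to 0.0897.

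Of 9 measured genes of the route from acetyl-CoA to cholesterol, a set chosen after its values were seen, 2 were called, msmo1 and dhcr7. Of all 9, 8 had negative differences and 1, lbr, a positive one at 0.13 (adjusted p = 0.542). Those that did not pass included acat2 at -0.39 (adjusted p = 0.135), hmgcs1 at -0.58 (adjusted p = 0.17), fdps at -0.46 (adjusted p = 0.164), mvk at -0.21 (adjusted p = 0.22) and fdft1 at -0.17 (adjusted p = 0.404). Cyp51, lanosterol demethylase, stood in the list with a probe set at -0.25 (adjusted p = 0.37), while its probe set Dr.1603.1.A1_at was lower at -0.86 (adjusted p = 0.0209), with TM1 values of 2.46 to 2.51 at the low end of the scale. Acsl1a, which activates fatty acids, likewise had 1 called probe set at -0.56 (adjusted p = 0.00959) and stood in the list with 1 at -0.34 (adjusted p = 0.123). The mean level of the whole lipid list was 6.39 to 6.50 in TM1 pools and 6.50 to 6.67 in Nadia pools.

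Immune genes went in both directions. Of 17 antigen presentation genes 2 were higher and 1 lower (17.6% called), with a median of 0.26 and 12 of 17 positive. The lower one was mhc1ufa, an MHC class I gene. It read 3.24, 3.95, 5.18 and 4.19 in TM1 and 6.45, 6.53, 5.33 and 6.91 in Nadia. The first male pools of the strains lay close to each other, and the remaining pools were far apart. The difference was -2.16 (SE 0.35, adjusted p = 0.00241), with -2.89 in females and -1.44 in males. The first female TM1 pool, at 3.24, lay within the 2.46 to 3.57 of fluorescent protein probe sets without signal, so no fold is given. Gaighatta pools were low like TM1 at 3.31, and SH pools were high at 7.12. The class I gene mhc1zba (-0.60, adjusted p = 0.181) and the class II gene mhc2daa (-0.62, adjusted p = 0.13) did not pass.

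The higher antigen presentation genes were proteasome parts. Psme1, a subunit of the activator cap that interferon gamma induces, read 6.69, 6.66, 7.28 and 7.35 in TM1 and 6.21, 6.39, 6.15 and 6.35 in Nadia. Both male TM1 pools were above both female ones, and all were above Nadia. The difference was 0.72 (adjusted p = 0.0144). Psmb10, an immunoproteasome core subunit, read 6.76, 7.11, 7.12 and 7.36 in TM1 and 6.41, 6.48, 6.60 and 6.69 in Nadia, a difference of 0.54 (adjusted p = 0.0249). That call did not pass without any 1 of 5 pools (TM1 F2, M1 and M2, Nadia F1 and F2), at up to 0.0718. The MHC class I light chain b2m differed by 0.50 (adjusted p = 0.141) and the class II invariant chain genes cd74a and cd74b by 0.34 and 0.57, none of them called over both sexes.

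Of 8 interferon response genes 1 was called, lgals3bp.1, and all 8 had positive differences, with a median of 0.28. Lgals3bp.1, a galectin-binding secreted glycoprotein, read 8.82, 9.22, 8.93 and 8.58 in TM1 and 8.27, 7.40, 8.15 and 7.63 in Nadia, a difference of 1.03 (SE 0.22, adjusted p = 0.0155). Here the male TM1 pools were not above the female ones, and the call ended without TM1 F2 (0.0506) or Nadia F2 (0.0517).

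Ifi27.1, nmi and ifi35 are linked to interferons as well but were named by the size of their difference, since they were not in that list. Ifi27.1, an interferon-induced membrane protein, read 6.30, 6.36, 7.80 and 7.56 in TM1 and 5.42, 5.61, 6.06 and 5.83 in Nadia, a difference of 1.27 (SE 0.33, adjusted p = 0.0455). Its call was lost without any 1 of 6 pools (TM1 M1 and M2 and each Nadia pool), at up to 0.119. Nmi, which binds ifi35, read 7.24, 7.22, 8.01 and 7.80 in TM1 and 6.61, 6.92, 7.06 and 6.74 in Nadia, a difference of 0.74 (adjusted p = 0.014). Ifi35 read 5.36, 5.55, 6.40 and 5.90 in TM1 and 5.00, 5.24, 5.33 and 4.82 in Nadia, a difference of 0.70 (adjusted p = 0.0496). The ifi35 call ended without any 1 of 5 pools (TM1 M1 and M2, Nadia F1, F2 and M2), at up to 0.13. In all 3 genes the male TM1 pools were the highest of the 8. Jak1, a kinase of interferon and cytokine receptors that was chosen after its value was seen, was higher by 0.64 (adjusted p = 0.0134), from 7.48 to 8.05 in TM1 and 7.06 to 7.28 in Nadia. The ubiquitin-like modifier isg15 read 4.84, 5.32, 7.20 and 6.08 in TM1 and 4.41, 4.45, 4.89 and 4.98 in Nadia, overlapping between the strains, with a difference of 1.18 (adjusted p = 0.0647).

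Markers of microglia and other leukocytes stood beside these. Of 18 measured, neutrophil and general leukocyte genes included, 2 were higher and 0 lower (11.1% called), with a median of 0.41 and 15 of 18 positive. The negative ones were the neutrophil gene mpx (-0.53, adjusted p = 0.0615), cyba (-0.19, adjusted p = 0.37) and lyz (-0.08, adjusted p = 0.934). C1qc, a chain of complement C1q, read 5.52, 5.73, 6.60 and 6.48 in TM1 and 5.16, 5.50, 5.05 and 5.25 in Nadia. The female TM1 pools were just above the Nadia range and the male ones far above it. Over both sexes the difference was 0.84 (SE 0.19, adjusted p = 0.0209), with 0.29 in females (adjusted p = 0.447) and 1.38 in males (adjusted p = 0.00036). Spi1b, a transcription factor of the myeloid lineage, read 5.4, 5.22, 5.81 and 5.64 in TM1 and 4.99, 4.99, 4.90 and 4.77 in Nadia, a difference of 0.60 (adjusted p = 0.0195), and its second probe set differed by 0.31 (adjusted p = 0.444). The c1qc call ended without TM1 M1, TM1 M2, Nadia F1 or Nadia M1, at up to 0.0643, and the spi1b call without TM1 M1, TM1 M2 or Nadia M2, at up to 0.0564. The mean level of the 18 markers was 6.27, 6.33, 7.08 and 6.87 in the TM1 pools and 6.25, 6.43, 6.17 and 6.24 in the Nadia pools. Only the male TM1 pools were high. The interferon list followed the same order, at 5.31, 5.45, 6.21 and 5.99 in TM1 and 5.19 to 5.25 in Nadia, and so did antigen presentation, at 6.49, 6.63, 7.14 and 6.97 in TM1 and 6.57 to 6.75 in Nadia. The antigen presentation list shares cd74a, cd74b and ctss2.1 with the leukocyte markers, so part of that likeness is built in. How far the level of leukocyte RNA sets the immune differences was not tested. Without both male TM1 pools, psme1, psmb10, ifi27.1, nmi, ifi35, c1qc and spi1b were not called, with differences of 0.36 to 0.60 and adjusted p of 0.147 to 0.424. In a fit of the 8 arrays alone these 7 genes were not called either, with adjusted p of 0.0611 to 0.145.

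**Figure D3:**
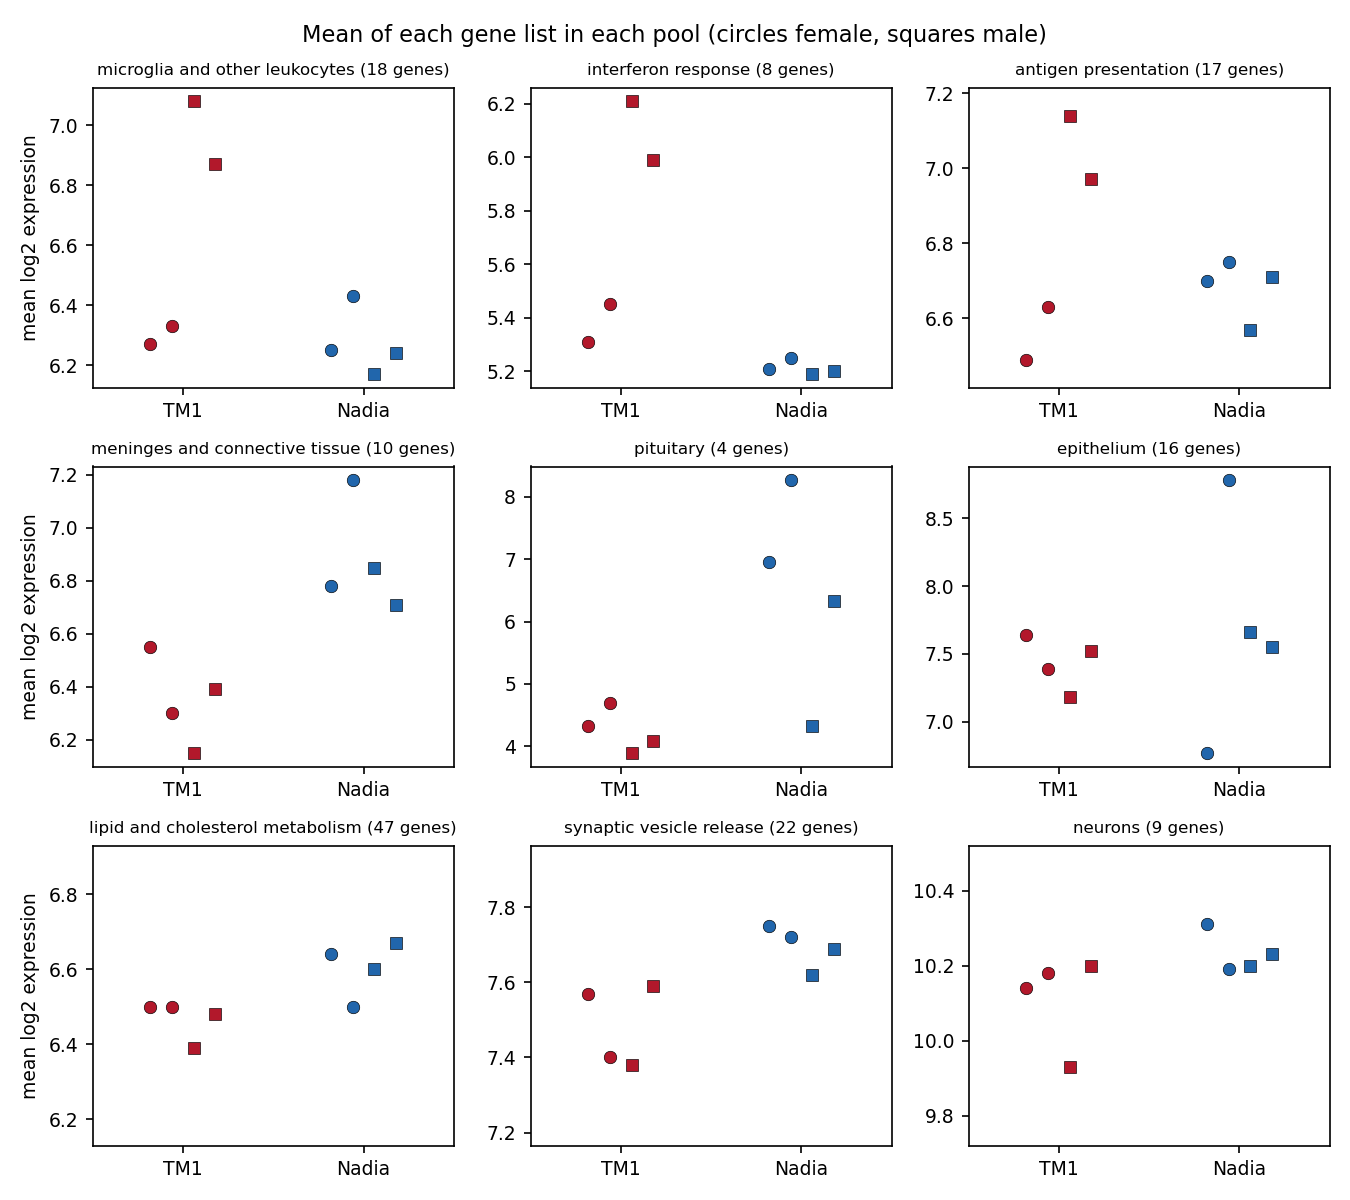
Mean log2 value over the measured genes of 9 lists (y axis) in each TM1 and Nadia pool, with circles for female and squares for male pools. The 2 male TM1 pools are the highest for microglia and other leukocytes (7.08 and 6.87), interferon and antigen presentation, and the Nadia pools spread widely for pituitary genes (4.33 to 8.27).

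By sex, 68 probe sets (0.858%) differed between the female pools and 117 (1.48%) between the male pools, 25 of them in both. In males 64 were higher in TM1 and 53 lower, and in females 25 were higher and 43 lower. The difference itself depended on sex at 9 probe sets (0.114%), and in all 9 the male difference was the more positive. The largest was the unnamed Dr.4748.1.S1_at, which read 5.12, 5.33, 10.99 and 10.59 in TM1 and 6.07, 7.53, 5.34 and 5.49 in Nadia. Its strain difference was -1.58 in females and 5.38 in males, so it turned sign, with an interaction of 6.95 (adjusted p = 0.00216). Irf1b, a transcription factor of the interferon response, read 5.65, 5.98, 7.73 and 7.49 in TM1 and 5.53, 6.15, 5.58 and 5.37 in Nadia. Females of the 2 strains overlapped, and the male TM1 pools stood above all others. The differences were -0.03 in females and 2.14 in males (interaction 2.17, adjusted p = 0.00826).

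In other interaction genes the male TM1 pools stood apart as well. Ncf1, a subunit of the phagocyte oxidase, read 3.68, 3.96, 5.65 and 5.56 in TM1 and 3.74, 4.35, 3.69 and 3.01 in Nadia (interaction 2.48, adjusted p = 0.0226). Gbp1, an interferon-induced guanylate binding protein, read 5.13, 5.32, 6.85 and 6.54 in TM1 against 4.92, 4.92, 4.98 and 5.01 in Nadia (interaction 1.39, adjusted p = 0.00826). Grna, a progranulin gene expressed by phagocytes, read 4.42, 4.13, 5.23 and 5.54 in TM1 against 4.16, 4.34, 4.01 and 3.62 in Nadia (interaction 1.55, adjusted p = 0.0487). In each, both male TM1 pools lay above every other pool. Female pools of gbp1 did not overlap, with TM1 slightly higher. Anxa3b, an annexin, turned sign, with differences of -0.67 in females and 0.82 in males (interaction 1.49, adjusted p = 0.0039). Si:dkey-33i11.9 differed by -0.46 and 2.49 (interaction 2.96, adjusted p = 0.00826), and the unnamed Dr.10376.1.S1_at by 0.33 and 3.75 (interaction 3.41, adjusted p = 0.0157).

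Among male pools alone, isg15 was higher in TM1 by 1.70 (adjusted p = 0.00664), b2m by 1.04 (adjusted p = 0.0072), cd74b by 1.17 (adjusted p = 0.00365) and the leukocyte plastin gene lcp1 by 1.45 (adjusted p = 0.00526). These 4 genes were not called over both sexes. The interaction was not called for them. The number of interaction calls rested on single pools and was 2 without TM1 F1, 5 without TM1 F2, 37 without TM1 M2 and 49 without Nadia F1. Both male TM1 pools were the highest of the 8 at 15 of the 88 probe sets called higher in TM1. No share for other pairs of TM1 pools was computed, so that count alone shows no male pattern. Of the 88, the male difference was at least 2 times the female one at 9, and the reverse held at 5. Without those 2 male pools 137 probe sets were called, of which 112 were among the 251, and 28 of the 65 probe sets named and called lost the call.

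**Figure D4:**
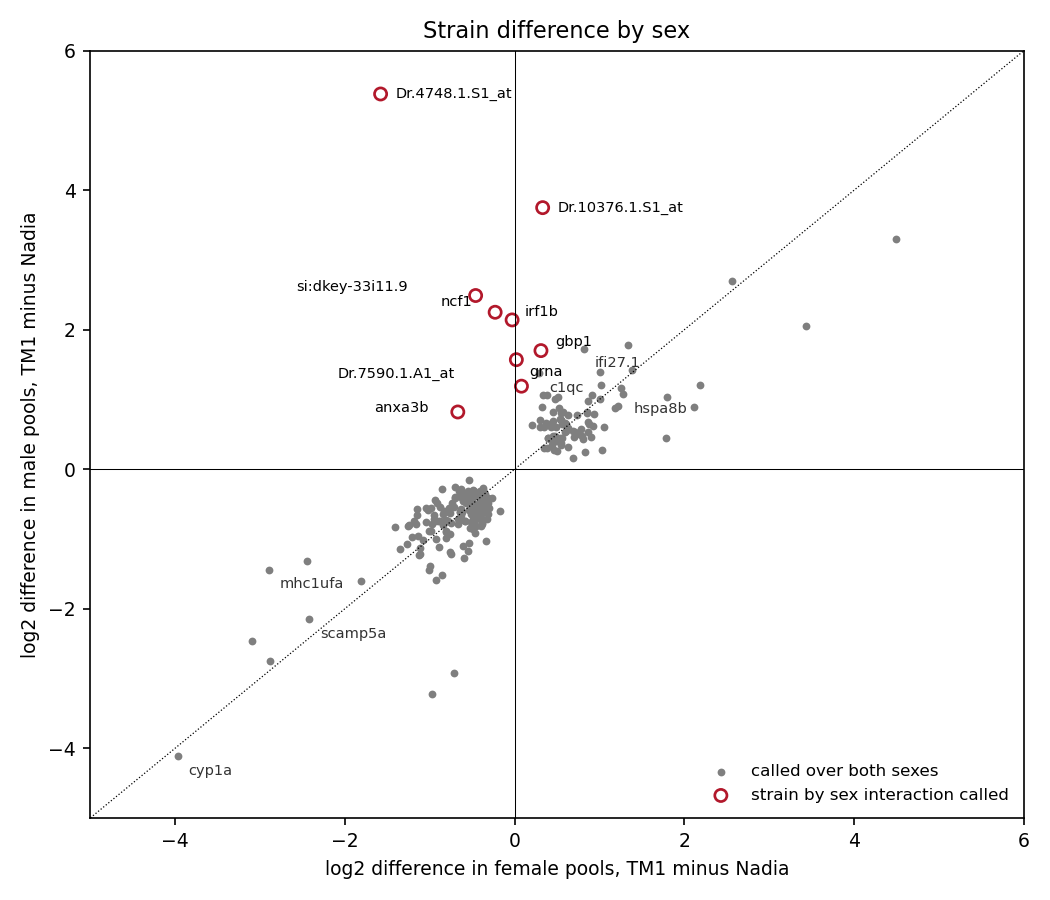
Log2 difference TM1 minus Nadia in female pools (x axis) against that in male pools (y axis), with probe sets called overall and the 9 called for the interaction marked. All 9 interaction probe sets lie above the line of equal difference, Dr.4748.1.S1_at at -1.58 and 5.38.

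Clock genes were called in both directions, 1 of 18 each, with a median of -0.16. Clockb, a subunit of the activating complex of the clock, read 5.54, 6.01, 5.88 and 5.50 in TM1 and 5.07, 4.61, 5.06 and 4.73 in Nadia. The groups were clearly separate, with a difference of 0.86 (SE 0.16, adjusted p = 0.00506), or 1.82-fold, and SH and Gaighatta lay with Nadia at 5.00 and 4.74. Nr1d2b, a repressor of the clock's second loop, read 8.89, 8.44, 8.85 and 8.57 in TM1 and 9.39, 9.20, 9.0 and 9.87 in Nadia, a difference of -0.68 (adjusted p = 0.0277), and a second probe set differed by -0.61 (adjusted p = 0.141). Its call ended without TM1 F2, TM1 M2, Nadia F1 or Nadia M2, at up to 0.0809. Rorcb (1.00, adjusted p = 0.0615), ciarta (-1.41, adjusted p = 0.22) and nfil3-5 (0.95, adjusted p = 0.111) had larger differences that did not pass. The second male Nadia pool was the highest for nr1d2b, at 9.87, and for ciarta, at 7.79. Of the 9 cryptochromes and photolyases none was called in either direction.

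Chaperones had 1 call in 31 genes of the list, upward, with a median of 0.10. Hspa8b, a constitutive heat shock protein of the Hsp70 family, read 9.29, 9.30, 8.79 and 9.11 in TM1 and 8.14, 7.90, 8.0 and 7.74 in Nadia. Every TM1 pool was well above every Nadia pool. The difference was 1.18 (SE 0.13, adjusted p = 7.8e-05), or 2.26-fold, while its relative hspa8 differed by 0.10 (adjusted p = 0.647). For hsp90aa1.2 one probe set was called at 0.62 (adjusted p = 0.0331) and another was not at 0.61 (adjusted p = 0.0632). Fkbp4, a co-chaperone of steroid receptors in the stress axis list, was higher by 0.33 (adjusted p = 0.0498), a call that ended without any 1 of 7 pools (all but TM1 M1), at up to 0.119.

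Glial and ciliary genes included single large differences within lists that otherwise did not move. Cyp19a1b, the brain aromatase, is made by radial glia in fish and turns androgens into oestrogens. Its probe set Dr.10461.1.S1_at read 10.27, 9.96, 9.83 and 10.09 in TM1 and 10.84, 11.02, 10.87 and 11.04 in Nadia, a difference of -0.90 (SE 0.14, adjusted p = 0.00198), or 1.87-fold. The groups were tight and well apart in both sexes. Its other probe sets differed by -0.56 (adjusted p = 0.175) and -0.31 (adjusted p = 0.18). It was the only call among 12 radial glia markers, whose median was -0.13, and gfap had strain means of 6.81 and 6.85. Ccdc39, a ruler protein of motile cilia, read 5.15, 5.62, 5.80 and 5.62 in TM1 and 6.60, 6.87, 6.97 and 6.74 in Nadia, a difference of -1.25 (SE 0.15, adjusted p = 0.000185), or 2.37-fold. SH lay with TM1 at 5.55, and Gaighatta was above Nadia at 7.48. Of the 7 ependyma and cilia markers it was the only call, with a median of -0.00.

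Connective tissue and pituitary markers leaned toward Nadia. Of 10 meningeal markers 9 had negative differences and 1 was called, with a median of -0.38, and their mean level was 6.15 to 6.55 in TM1 pools and 6.71 to 7.18 in Nadia pools. Sparc, a collagen-binding matrix protein, read 7.93, 7.61, 7.63 and 8.0 in TM1 and 8.38, 9.10, 8.56 and 8.63 in Nadia, a difference of -0.88 (adjusted p = 0.00355). The type I collagen gene col1a1a read 8.11, 7.21, 6.17 and 7.71 against 8.73, 9.31, 8.90 and 8.41, without overlap, at -1.54 (adjusted p = 0.0521). Pituitary hormone genes had large differences with very uneven Nadia pools. The growth hormone gene gh1 read 4.80, 5.07, 5.17 and 4.81 in TM1 and 8.25, 11.51, 5.05 and 7.78 in Nadia, a difference of -3.18 (adjusted p = 0.155). The first male Nadia pool was as low as TM1 and the second female one far above all. Prl (-1.66, adjusted p = 0.162), pomca (-1.99, adjusted p = 0.164) and cga (-2.05, adjusted p = 0.237) were also lowest among the Nadia pools in the first male pool, and none was called. Pituitary pool means were 3.89 to 4.69 in TM1 and 4.33 to 8.27 in Nadia, and their part in other differences was not tested. Cyp1a was 8.53 in the first male Nadia pool, where gh1 was 5.05, and 8.14 in the second female one, where gh1 was 11.51. The relation of cyp1a to pituitary RNA was not tested.

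The extracellular matrix list had 1 of 54 genes called upward and 2 downward, sparc among them, with a median of -0.15. It holds every measured meningeal marker except ptgdsb.1, so part of its lean repeats theirs. Tgfbi, an integrin-binding matrix protein, was lower at -0.71 (adjusted p = 0.0195), but not without TM1 M2 (0.0562). Col15a1a, a basement membrane collagen, was higher by 0.53 (adjusted p = 0.0436), a call that ended without any 1 of 7 pools (all but TM1 F1), at up to 0.108. Cytoskeleton genes were lower at 3 of 55 and higher at 0. They were the tubulins tuba8l3 (-0.69, adjusted p = 0.029) and tubb5 (-0.52, adjusted p = 0.0199) and the actin-sequestering thymosin tmsb (-0.57, adjusted p = 0.00411). Tuba8l3 did not pass without any 1 of 6 pools (all but TM1 F2 and Nadia F2), at up to 0.0814, nor tubb5 without Nadia F1 or Nadia M2, at up to 0.066. A second tubb5 probe set differed by -0.12 (adjusted p = 0.566). Igfbp2a, an insulin-like growth factor binding protein, was also lower (-0.64, adjusted p = 0.0089).

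Nuclear and RNA-binding proteins gave several of the largest named differences. Nucks1a, a chromatin-associated phosphoprotein, read 10.20, 10.47, 10.14 and 10.28 in TM1 and 9.37, 8.80, 9.13 and 8.94 in Nadia, a difference of 1.21 (SE 0.18, adjusted p = 0.00102), or 2.31-fold. The groups were tight and far apart. Gaighatta lay with TM1 at 10.34 and SH with Nadia at 9.15. Znhit1, a subunit of a chromatin remodeller that deposits a histone variant, read 4.71, 4.69, 4.73 and 4.54 in TM1 and 5.83, 5.78, 5.58 and 6.10 in Nadia, a difference of -1.16 (adjusted p = 0.000202), and its other probe set gave -1.10 (adjusted p = 0.000253). Hnrnpa0a, an RNA-binding protein, read 8.32, 8.66, 7.46 and 8.02 against 9.41, 9.42, 9.06 and 9.59 at Dr.5122.1.S1_at, a difference of -1.26 (SE 0.18, adjusted p = 0.000949). Its other probe sets were near 0, at -0.20 (adjusted p = 0.463) and -0.09 (adjusted p = 0.742). Of 114 RNA-binding genes in the list 3 were lower and 0 higher, and of 78 chromatin genes 1 was called each way. Cstf1 of the RNA-binding list had a probe set called higher (0.44, adjusted p = 0.0483). Its counted probe set, that of highest mean, was not called (-0.29, adjusted p = 0.103). Rbfox2, a splicing regulator of neurons, was lower, with a difference of -0.64 (adjusted p = 0.016). Msi2b, an RNA-binding gene of neural progenitors that was not in the list, was higher by 0.76 (adjusted p = 0.0225). A second msi2b probe set differed by 0.10 (adjusted p = 0.651). The DNA repair gene nbn was higher by 0.45 (adjusted p = 0.00535), the only call among 31 genes of that list.

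Wls, the carrier that brings Wnt ligands to the cell surface, read 7.06, 6.33, 6.37 and 6.65 in TM1 and 4.1, 5.06, 5.52 and 5.72 in Nadia at Dr.26538.1.A1_at. The first female Nadia pool was the lowest, and no pool overlapped. The difference was 1.5 (SE 0.28, adjusted p = 0.00557), or 2.83-fold, with SH at 6.20 and Gaighatta far lower at 2.74. Other wls probe sets differed by 0.13 (adjusted p = 0.854) and -0.28 (adjusted p = 0.282), and 0 of 21 Wnt genes were called with 1 probe set per gene. Fthl28, a ferritin heavy chain-like gene for iron storage, read 6.20, 6.48, 6.28 and 6.84 against 5.42, 5.57, 5.62 and 5.88, a difference of 0.83 (adjusted p = 0.0181) that ended without TM1 M2 (0.0563) or Nadia F1 (0.0565).

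Further genes among the largest named differences had single calls. TM1 was higher for lrrc20 (0.83, adjusted p = 0.00153), for brms1, a subunit of a histone deacetylase complex (0.77, adjusted p = 0.0041), and for gpd1l, a glycerol-3-phosphate dehydrogenase-like enzyme (0.69, adjusted p = 0.0089). A second gpd1l probe set differed by 0.11 (adjusted p = 0.561). TM1 was lower for fam78ba (-0.97, adjusted p = 0.00248), zgc:101744 (-1.05, adjusted p = 0.000449) and the ubiquitin-conjugating enzyme ube2q2 (-0.85, adjusted p = 0.000392). At their called probe sets the 4 and 4 values of these 6 genes did not overlap, beside 9.95% of all probe sets. The rule for naming by size required this of all but ube2q2.

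Several genes were represented by more than 1 probe set. Of 40 such genes with a called probe set, every probe set was called in 2, only some in 37, and calls went in opposite directions in 1. The last was pcmt, a protein repair methyltransferase. Dr.372.1.S1_at of pcmt read 5.61, 5.93, 5.58 and 6.00 in TM1 and 6.96, 6.85, 7.16 and 6.86 in Nadia, a difference of -1.18 (adjusted p = 0.000289), while Dr.19446.1.S1_at was higher by 0.48 (adjusted p = 0.0209). The remaining pcmt probe sets, at 0.15 and -0.12, were not called. In rnf19a, a ubiquitin ligase gene, TM1 was lower at 2 probe sets (-1.0, adjusted p = 0.000599, and -0.74, adjusted p = 0.000746) and stood at -0.09 in another. Among the 46 uncalled probe sets of called genes 37 had the sign of the call. Which of a gene's probe sets follows its RNA level was not tested.

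**Figure D5:**
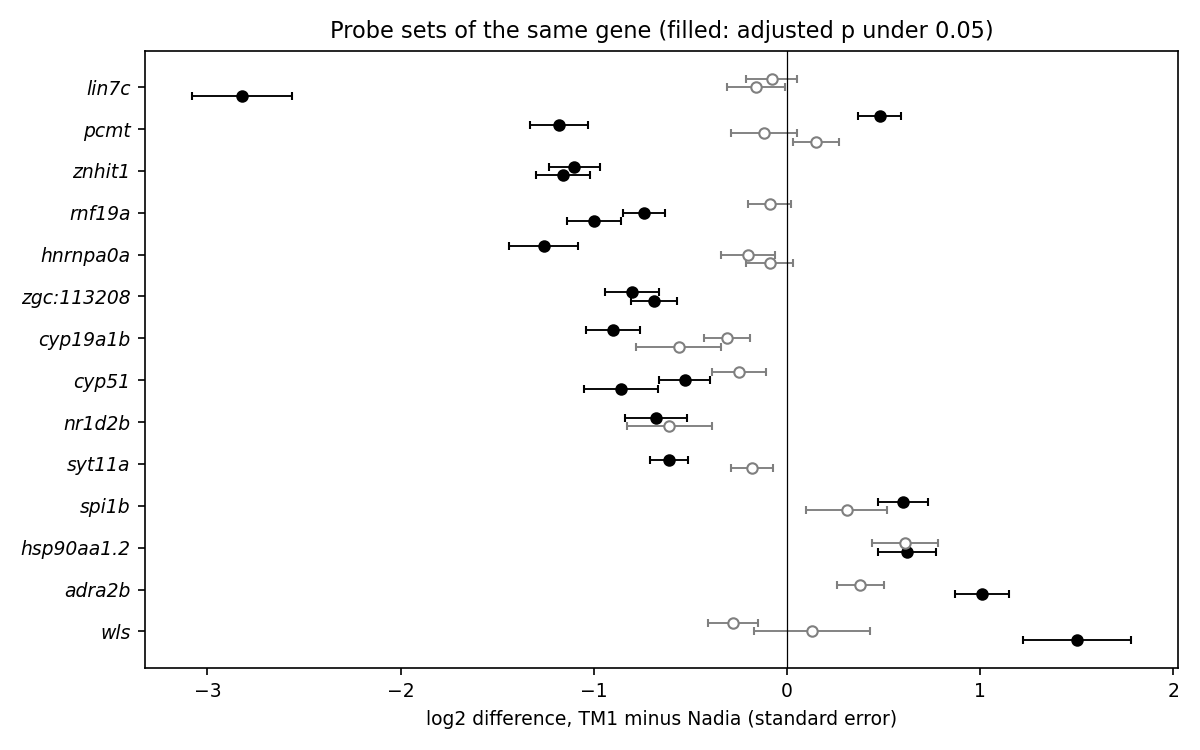
Log2 difference TM1 minus Nadia (x axis) with its standard error for every probe set of 14 genes that have more than 1, with called ones filled. For lin7c 1 probe set lies at -2.82 and the others near 0, and for pcmt the called probe sets lie on opposite sides.

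The largest upward differences were at probe sets without a gene symbol. Dr.10066.1.A1_at read 7.59, 6.59, 5.12 and 6.99 in TM1 and 2.62, 2.57, 2.81 and 2.70 in Nadia, a difference of 3.90 (SE 0.34, adjusted p = 1.01e-05). The Nadia values lay where fluorescent protein probe sets read in arrays without that signal, so no fold is given. It was low in SH (2.76) and Gaighatta (2.67) as well, so TM1 alone was high. Dr.21035.1.S1_at had the smallest p of all, at 5.98, 5.89, 6.51 and 5.85 in TM1 and 3.12, 3.62, 3.54 and 3.40 in Nadia, a difference of 2.63 (SE 0.16, adjusted p = 1.16e-07). Gaighatta resembled TM1 there (6.22) and SH resembled Nadia (3.48). Dr.13531.1.A1_at was higher by 2.74 (adjusted p = 0.00398). Downward, Dr.14121.1.A1_at read 3.32, 3.49, 4.04 and 3.13 against 6.31, 6.70, 6.20 and 5.88, a difference of -2.78 (adjusted p = 0.000599), followed by Dr.11010.1.S1_at at -2.09 (adjusted p = 0.00899) and Dr.20478.1.S1_at at -1.88 (adjusted p = 0.0117). In a fit of the 8 arrays alone Dr.11010.1.S1_at (adjusted p = 0.0818) and Dr.20478.1.S1_at (adjusted p = 0.0733) were not called. Without both male pools of either strain Dr.11010.1.S1_at stood at -0.97 (adjusted p = 0.42).

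Large lists of housekeeping and signalling genes held few or no calls. None passed among 58 ribosomal protein genes, 37 of axon guidance, 33 of cell death, 28 immediate early genes, 24 neuropeptides, 11 of monoamines, 9 of glutamate and 7 of GABA signalling. These counts use 1 probe set per gene, that of highest mean. A probe set that was not counted was called higher for adra2b of the monoamine list (1.01, adjusted p = 0.000599). The same held for mrps5 of the ribosomal list (0.38, adjusted p = 0.0445), whose counted probe set stood at -0.19 (adjusted p = 0.463). Of 60 respiratory chain genes 1 was lower, the assembly factor sdhaf2 (-0.71, adjusted p = 0.0365), which did not pass without any 1 of 5 pools (TM1 F1 and M2, Nadia F1, F2 and M2), at up to 0.109. Of 77 proteasome and ubiquitin genes 2 were higher and 1 lower. The higher ones were psmb10 and psme1, already counted under antigen presentation, and the lower one was ube2q2. Of 57 homeobox genes only dlx1a, a factor of forebrain interneurons, was called (-0.62, adjusted p = 0.0496). The dlx1a call ended without any 1 of 7 pools (all but TM1 M2), at up to 0.131. Muscle markers had no call in 13, with pool means of 6.38 to 8.48 in TM1 and 6.77 to 8.84 in Nadia, and the 16 epithelial markers had none, at 7.18 to 7.64 and 6.77 to 8.78. Of 9 eye markers 8 had positive differences, with a median of 0.49, and none was called.

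The other 2 strains place each difference. Of the 251 called probe sets, the SH and Gaighatta means were both nearer Nadia at 85 (33.9%) and both nearer TM1 at 73 (29.1%). SH was nearer TM1 and Gaighatta nearer Nadia at 57 (22.7%), with the reverse at 36 (14.3%). TM1 lay beyond all 3 other strains at 164 and Nadia beyond all 3 others at 147, with both at the ends of the range at 71. Calling probe sets for a difference between TM1 and Nadia itself favours these ends. The shares over all probe sets were not computed, so the counts do not show these strains to be extreme. In the same model 526 probe sets (6.64%) differed between TM1 and SH and 1654 (20.9%) between TM1 and Gaighatta. These comparisons share the TM1 arrays, so they are given side by side only.

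Of 15 genes taken from the study's text that had a probe set here, which are not all that it names, 3 had a called one, cyp1a, wls and selenop. Genes of the study's comparison across species, such as ccdc39, eif1axa, gpx4a and kcnk1b, had a called probe set here but lie outside the 15. The rest of the 15 did not pass over both sexes. Among them, the growth factor igf1 differed by 0.52 (adjusted p = 0.373), the coat protein gene sec31a by -0.34 (adjusted p = 0.218), the vesicle protein gene synprb by -0.41 (adjusted p = 0.263) and acbd3, a Golgi protein, by 0.40 (adjusted p = 0.0741). Dio2, which activates thyroid hormone, differed by 0.50 (adjusted p = 0.703), with 1.19 in females (adjusted p = 0.0205) and -0.19 in males, a contrast between the sexes that was not called. The study named igf1 and dio2 for differences between the sexes. It named sec31a, synprb and acbd3 for differences between rearing histories over all its strains. A contrast of TM1 with Nadia tests neither.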

How the data were processed

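The authors ran RMA in the affy package (background correction, normalization and summary per probe set, with neither version given in the sources used here). They deposited log2 expression values for 7958 probe sets, the number their methods give after a filter on expression and variability. By those methods, genes with an interquartile range under 0.5 across all chips were removed. Of the 7922 tested, however, 7068 had an interquartile range under 0.5, so the deposited values do not bear out that variability filter. The 36 control probe sets were left out, and the authors' filter on polymorphic probes was not applied. Symbols came from the platform annotation, with 5640 probe sets having 1 symbol, 53 several and 2229 none.

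Arrays were grouped by their strain and sex labels. In limma 3.58.1 (R 4.3.3) a mean was fitted per strain, all 16 arrays sharing 1 moderated estimate of spread, with Benjamini-Hochberg adjustment over 7922 probe sets. A second model held a mean per strain and sex. Precision rests on 4 pools per strain, and p measures the spread between pools, some of which may be technical. Named are the 15 largest non-overlapping calls with 1 symbol in each direction, 3 without a symbol, up to 4 called members per list, their other probe sets, the 5 largest interactions and genes the study names. Other genes (uncalled list members, further interactions, jak1, hadhb, elovl7a, msi2b, gng7, igfbp2a, pon2, cyp51, acsl1a, hsp90aa1.2, mrps5 and cstf1) were chosen after their values were seen. The comparison, the 47 lists and the rule were chosen with earlier results of these data known. On data simulated for this comparison over 7922 probe sets, 64 of 100 changed 1.5-fold and 87 of 100 changed 2-fold were called, with 12 of 7722 unchanged ones. The simulated noise was normal and independent between probe sets and arrays, without sex effects or differences of the other strains. Shifts that many genes of a pool share were not simulated, so these rates may not hold for the real pools. Alternatives covered arrays, covariates, variance model, scaling, filters, probe set choice, threshold and single pools.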

Additional observations from a re-analysis of the deposited data

Results flagged for a closer look

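Single pools stood apart from the other 3 pools of their strain at 5 of 140 groups of 4 pools checked, and chance alone sets about 1 group in 20 apart by this measure. Scamp5a was lowest in the second male Nadia pool, at 9.96 against 10.67 to 10.73 in the others. Dlx1a was highest in that same pool, at 6.69 against 6.04 to 6.15. Rbfox2 was lowest in the first female TM1 pool, at 5.94 against 6.14 to 6.15. Rbm45, at 6.02 against 6.55 to 6.61, and snx12, at 6.77 against 7.21 to 7.27, were both lowest in the first male TM1 pool. Rbm45 encodes an RNA-binding protein and snx12 a sorting nexin. The snx12 probe set given here differed by -0.50 (adjusted p = 0.0392), whereas a second stood at 0.12 (adjusted p = 0.672).

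The strain difference differed between the sexes, by the test of the interaction, at 9 probe sets. For Dr.4748.1.S1_at the male difference exceeded the female one by 6.95 (adjusted p = 0.00216), for Dr.10376.1.S1_at by 3.41 (adjusted p = 0.0157) and for si:dkey-33i11.9 by 2.96 (adjusted p = 0.00826). For ncf1 it exceeded it by 2.48 (adjusted p = 0.0226), for irf1b by 2.17 (adjusted p = 0.00826) and for grna by 1.55 (adjusted p = 0.0487). For anxa3b it exceeded it by 1.49 (adjusted p = 0.0039), for gbp1 by 1.39 (adjusted p = 0.00826) and for Dr.7590.1.A1_at by 1.11 (adjusted p = 0.0248). The mean level of 18 markers of microglia and other leukocytes was 7.08 and 6.87 in the male TM1 pools, against 6.17 to 6.43 in the other 6 pools, and its part in these differences was not tested. Grna is itself among the 18 markers.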

How the results depend on the processing

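Fitting only the 8 arrays left 99 calls (27 higher, 72 lower), an adjusted p under 0.01 left 104 (25 and 79), 1 probe set per gene left 112 (38 and 74) and an interquartile range of at least 0.5 left 158 (61 and 97). Fewer arrays, probe sets or a lower threshold define these settings. Array weights gave 332 calls with 141 higher, quantile normalizing again gave 296 with 135 higher, and counting values that do not overlap gave 788 (297 and 491). The cause of the rises was not tested. Chosen after seeing the data, leaving out both male TM1 pools left 137 calls (48 and 89), 112 of them among the 251, and leaving out both male pools of either strain left 107 (36 and 71), 84 of them among the 251. Leaving out 1 pool gave 194 to 247 calls, 60 to 97 higher and 131 to 160 lower. The replicate numbers did not pair the pools, with correlations of deviations from -0.17 to 0.15. With the replicate block 327 probe sets were called, and with the replicate block on the 8 arrays 66 (22 and 44). On the 8 arrays 21 probe sets were called in females, 44 in males and 1 for the interaction, which had 15 with a variance trend and 2 to 49 without 1 pool. Other settings kept each count within 1.5 times. Of 65 named and called probe sets, 18 were called under every alternative that kept them (20 to 23 for each). The call was lost by 40 with the replicate block on the 8 arrays and by 36 without both male pools of either strain. It was lost by 29 on the 8 arrays, by 28 without both male TM1 pools and by 23 without at least 1 pool. Of the 65, 0 changed sign. Signal near background limits probe sets at the low end of the scale.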
